A study of Mus musculus with 12 samples.

Results

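The comparison described here sets the ventral hippocampus of mice labelled SSDS with GFP against that of mice labelled CSDS, across all genes of a raw count table. It rests on 6 of the 12 RNA-seq libraries of the series, 3 in each group, chosen by their labels. The labels give these abbreviations without their meaning. In this field CSDS is chronic social defeat stress, repeated encounters with an aggressive mouse, and SSDS is the subthreshold form, in which the encounters are few. According to the design text, the SSDS mice had received an AAV8-eGFP virus, a viral vector coding for green fluorescent protein, and their column names carry "TBG", usually the thyroxine-binding globulin promoter that is active in liver cells. No virus is named for the CSDS mice. The 2 groups therefore differ in the stress regimen and in the virus, which cannot be told apart here. All the libraries are labelled WT, the wild-type genotype, and no age, sex, strain or time of collection is given. The other 6 libraries, 3 untreated controls and 3 from SSDS mice with a knockdown of ACOT12, an acetyl-CoA thioesterase (SSDS-shACOT12), are quoted only as levels. The labels do not say whether replicates are separate animals, so each p-value reflects library-to-library spread, which may be technical.

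The ventral hippocampus is linked to emotion and stress responses, and its excitatory neurons switch on immediate early genes such as Fos and Arc after strong activity. Endoplasmic reticulum chaperones such as Hspa5 (BiP) are made when secretory protein folding is strained, through the sensors and transcription factors of the unfolded protein response. Cytosolic heat shock proteins do the matching work outside that compartment. Haemoglobin transcripts in brain tissue come largely from red blood cells and their precursors, and neurons are also known to make some.

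The 6 libraries held from 14656714 counts (SSDS-GFP 1) to 17694570 counts (CSDS 2). Of 54532 genes, 29965 had a count in at least 1 of the 6 and 16192 had enough counts to be tested. Markers of the labelled tissue were present in all 6 libraries. Prox1, the granule cell transcription factor of the dentate gyrus, had between 91.9 and 136 CPM (counts scaled to library size), and Slc17a7, the vesicular glutamate transporter of excitatory neurons, had between 1376 and 1721 CPM. One library stood apart. SSDS-GFP 3 had a score of 51 on the first principal component, which held 37.9% of the variance, while the other 5 libraries scored between -28.5 and 3.35. The median SD of log2 CPM within a group was 0.152 for CSDS and 0.238 for SSDS-GFP. Results that rest on SSDS-GFP 3 are given with and without it.

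Few genes passed the test. With edgeR's quasi-likelihood test and Benjamini-Hochberg adjustment over the 16192 genes, 4 genes (0.0247%) were lower in SSDS-GFP than in CSDS and 0 genes (0%) were higher at an adjusted p under 0.05. All 4 were adult haemoglobin chains. At an unadjusted p under 0.05 there were 870 genes, 435 (2.69%) in each direction. DESeq2's Wald test on the same libraries called 37 genes, 23 higher (0.151%) and 14 lower (0.0919%). Of those 23, 13 belonged to 3 lists: the unfolded protein and integrated stress response, the heat shock proteins and the immediate early genes. These lists held 30, 23 and 29 of the 16192 tested genes, and were chosen with earlier results of these data known. The log2 fold change, SSDS-GFP minus CSDS throughout, was above 0 for 50.5% of the tested genes and below 0 for 49.5%.

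**Figure D1:**
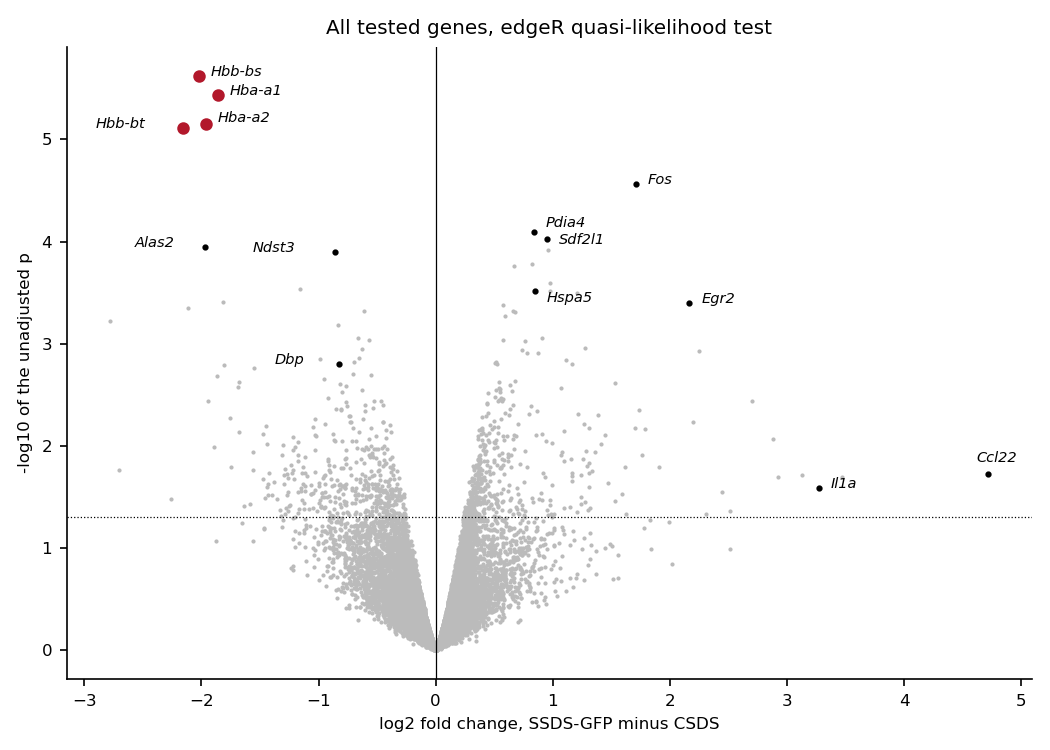
Log2 fold change (SSDS-GFP minus CSDS, horizontal axis) against -log10 of the unadjusted edgeR p (vertical axis) for the 16192 tested genes. The 4 red points are the haemoglobin genes past an adjusted p of 0.05, the dotted line marks an unadjusted p of 0.05, and Fos is the highest point on the right.

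The adult haemoglobin transcripts were 3.64 to 4.46 times as abundant in CSDS as in SSDS-GFP, with no overlap between the groups. Over all tested genes, 4.54% were lower in SSDS-GFP without overlap. Hbb-bs, a beta chain, had 222, 173 and 201 CPM in CSDS 1 to 3 and 63.2, 50.3 and 35.1 CPM in SSDS-GFP 1 to 3. Every CSDS library lay far above every SSDS-GFP library. Its log2 fold change was -2.02 ± 0.21 (SE), with an adjusted p of 0.0301 in edgeR. Hba-a1, an alpha chain, had 121, 124 and 106 CPM in CSDS and 44.1, 28.7 and 24.9 CPM in SSDS-GFP, and fell by 1.86 ± 0.20 on the log2 scale (edgeR adjusted p = 0.0301). Hbb-bt, the second adult beta chain, had 23.7, 17.1 and 20.5 CPM in CSDS and 6.21, 4.73 and 3.03 CPM in SSDS-GFP (log2 fold change -2.16 ± 0.25, edgeR adjusted p = 0.0311). Hba-a2, the second alpha chain, had 11.1, 14.3 and 13 CPM in CSDS and 4.33, 2.76 and 2.92 CPM in SSDS-GFP (log2 fold change -1.96 ± 0.23, edgeR adjusted p = 0.0311). The 2 alpha genes are near-identical copies, and the 2 beta genes are closely alike, so the split of reads within each pair is uncertain.

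The sum of the 4 haemoglobin genes was 349 ± 26.3 CPM (SD) in CSDS and 90.1 ± 26.2 CPM in SSDS-GFP, a ratio of 3.87. The 2-sided exact permutation test over libraries gave p = 0.1, the smallest that 3 against 3 allows. In the control libraries the same sum was 85.4, 118 and 109 CPM, and in SSDS-shACOT12 it was 101, 91.7 and 201 CPM. The CSDS libraries, at 378, 328 and 340.2 CPM, were thus the highest 3 of the 12.

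Alas2, the red cell enzyme that starts haem synthesis, had 7.89, 4.01 and 5.25 CPM in CSDS and 1.52, 1.64 and 1.26 CPM in SSDS-GFP. Its log2 fold change of -1.97 ± 0.32 did not pass in edgeR (adjusted p = 0.207), and it passed in DESeq2 (adjusted p = 0.000199). Of the blood cell list, 10 genes long, 7 were tested: 4 were called lower by edgeR and 5 by DESeq2. Slc4a1, the anion exchanger of the red cell membrane, had at most 0.188 CPM in any of the 6 libraries and could not be tested.

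Markers of the vessel wall differed less than the haemoglobin genes. Of 20 endothelial and barrier genes tested, 0 passed in edgeR or DESeq2. In edgeR 9 had an unadjusted p under 0.05, all lower in SSDS-GFP, against 2.69% of all tested genes. The list's median log2 fold change was -0.29. Its summed level overlapped between the groups, at 1281, 1103 and 1149.9 CPM in CSDS and 1108, 1017 and 1185 CPM in SSDS-GFP. Pecam1, an adhesion molecule of endothelial cells, had 28.6, 18.1 and 20.4 CPM in CSDS and 12.5, 11.4 and 16.0 CPM in SSDS-GFP (log2 fold change -0.76 ± 0.20, edgeR adjusted p = 0.729). Tek, the angiopoietin receptor, had 19.1, 13.7 and 16.4 CPM in CSDS and 10.9, 11.0 and 10.8 CPM in SSDS-GFP. Neither gene's groups overlapped, and 4.54% of all tested genes were lower without overlap. Sox17, an endothelial transcription factor, had a log2 fold change of -0.85 ± 0.23 (edgeR adjusted p = 0.764). Cldn5, the tight junction protein of the blood-brain barrier, had a log2 fold change of 0.09 ± 0.17. All 12 mural cell genes tested had a log2 fold change below 0, with a median of -0.35, and 1 had an unadjusted p under 0.05, Pdgfrb, the platelet-derived growth factor receptor of pericytes (0 passed in edgeR or DESeq2). Without SSDS-GFP 3 their median was -0.45 and 5 had an unadjusted p under 0.05, all lower (5.25% of all genes in that fit). In bulk tissue, fewer cells of a type and less RNA per cell cannot be told apart, and the part of blood or vessel content in the haemoglobin difference was not tested.

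**Figure D2:**
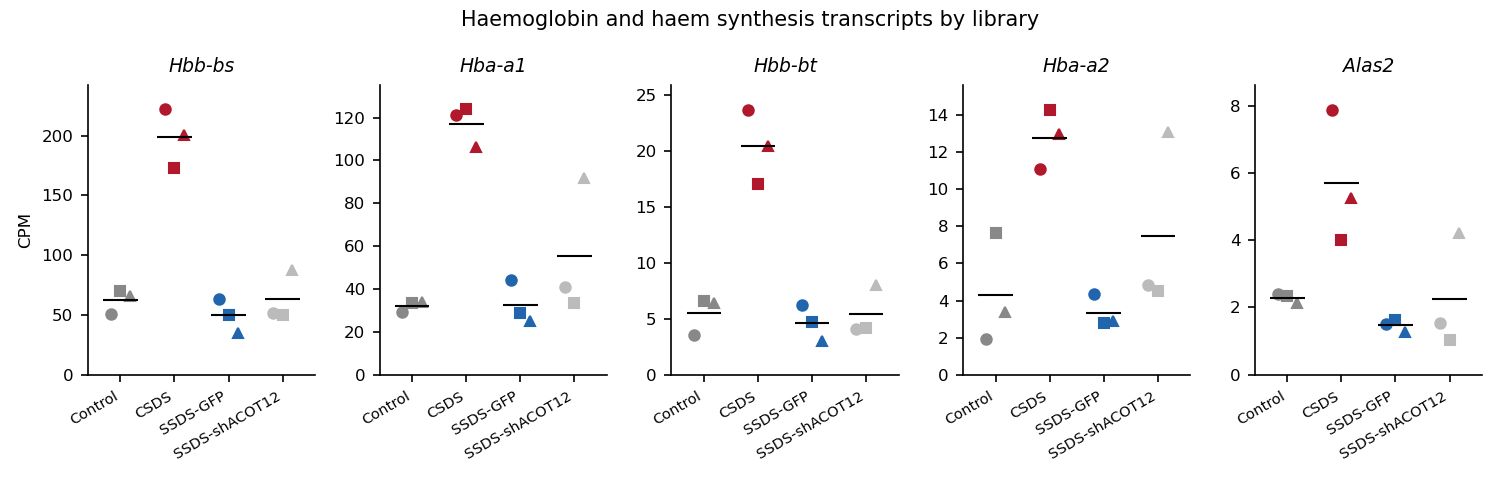
CPM (linear axis from 0) of the 4 haemoglobin genes and Alas2 in each library of the 4 groups. Circles, squares and triangles are replicates 1, 2 and 3, and lines are group means. The 3 CSDS libraries lie above the 3 SSDS-GFP libraries in each panel.

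RefSeq promoter windows (GRCm38.p6) are shown for the 2 most abundant haemoglobin genes and for Hspa5, whose values follow below. Each holds the 250 bases before the transcription start in the direction of the gene. Capitals mark a CACCC box (CCACACCC, bound by erythroid Krüppel-like factors) or an endoplasmic reticulum stress response element (CCAAT and CCACG with 9 bases between them), searched on both strands. The windows lie at chr7:103827929-103828178 (minus strand), chr11:32283422-32283671 (plus strand) and chr2:34771840-34772089 (plus strand).
Hbb-bs: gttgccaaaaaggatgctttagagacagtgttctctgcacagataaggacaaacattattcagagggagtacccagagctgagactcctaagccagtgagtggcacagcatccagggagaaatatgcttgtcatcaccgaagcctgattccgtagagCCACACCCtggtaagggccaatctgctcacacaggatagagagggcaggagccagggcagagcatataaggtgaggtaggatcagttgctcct
Hba-a1: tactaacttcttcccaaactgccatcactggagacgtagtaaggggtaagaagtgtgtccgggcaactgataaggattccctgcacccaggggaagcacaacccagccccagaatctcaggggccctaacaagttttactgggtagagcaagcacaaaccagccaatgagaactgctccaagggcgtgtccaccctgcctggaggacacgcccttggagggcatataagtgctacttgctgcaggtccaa
Hspa5: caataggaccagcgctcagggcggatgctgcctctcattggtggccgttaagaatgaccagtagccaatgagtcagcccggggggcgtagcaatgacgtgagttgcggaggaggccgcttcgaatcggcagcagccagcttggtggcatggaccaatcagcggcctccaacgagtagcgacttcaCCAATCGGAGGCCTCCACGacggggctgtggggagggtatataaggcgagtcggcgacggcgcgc
The exact letters CCACACCC were found in the window of 1 of the 6 tested blood cell genes that have one, Hbb-bs, and in 3.2% of all 32851 windows. They do not occur in the Hba-a1 window, which does hold the shorter CACCC. Other forms of the CACCC box were not searched for.

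Genes of the unfolded protein and integrated stress response lay mostly above their CSDS level in SSDS-GFP. Of 30 tested, 26 had a log2 fold change above 0, the median was 0.29 and 14 had an unadjusted edgeR p under 0.05, all higher. Over all tested genes, 2.69% were higher at that threshold. After adjustment 0 passed in edgeR, and 5 passed in DESeq2, all higher: Pdia4, Sdf2l1, Hspa5, Manf and Xbp1. In 16 genes of the list, each SSDS-GFP library was above each CSDS library, against 6.45% of all tested genes.

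Hspa5 (BiP), the main chaperone of the endoplasmic reticulum, had 238, 254 and 173 CPM in CSDS and 413, 423 and 376 CPM in SSDS-GFP. The groups were well separated, and the 3 SSDS-GFP libraries lay close together. Its log2 fold change was 0.85 ± 0.16 (adjusted p = 0.303 in edgeR and 0.000699 in DESeq2). Pdia4, a disulfide isomerase, had 36.5, 41.2 and 31.3 CPM in CSDS and 64.0, 69.0 and 63.9 CPM in SSDS-GFP (log2 fold change 0.84 ± 0.13, adjusted p = 0.207 in edgeR and 0.000228 in DESeq2). Sdf2l1, which helps Hspa5 hold unfolded clients, had 14.8, 15.3 and 11.8 CPM in CSDS and 30.8, 25.6 and 25.4 CPM in SSDS-GFP. Its level in SSDS-GFP was 1.93 times that in CSDS (adjusted p = 0.207 in edgeR and 0.000675 in DESeq2). Manf, a secreted factor retained by Hspa5, had a log2 fold change of 0.67 ± 0.11, and Xbp1, a transcription factor of the unfolded protein response, one of 0.59 ± 0.12. Herpud1, which takes part in degrading misfolded proteins, had a log2 fold change of 0.52 ± 0.12 (edgeR adjusted p = 0.541).

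The other members had a wide range of values. Ddit3 (CHOP), a transcription factor linked to prolonged stress, had a log2 fold change of 0.43 ± 0.13 (edgeR adjusted p = 0.821), and its groups did not overlap. Atf4, the central transcription factor of the integrated stress response, had a value of 0.29 ± 0.15 with overlapping groups. Chac1 and Trib3, which are Atf4 targets, had log2 fold changes of -0.18 ± 0.20 and 0.08 ± 0.52. The sensor genes Eif2ak3 (PERK) and Ern1 (IRE1) were at 0.11 and -0.00, and Dnajb9, a co-chaperone of Hspa5, and Selenos, a protein of the degradation pathway, were at 0.01 and 0.02. Atf3 had the highest value of the list, 2.88 ± 0.88, and this rested on SSDS-GFP 3: its CPM was 1.25, 1.10 and 0.604 in CSDS and 1.88, 1.71 and 18.4 in SSDS-GFP, and the log2 fold change without that library was 0.84. For the list as a whole, the median without SSDS-GFP 3 was 0.30, with 13 genes at an unadjusted p under 0.05 in edgeR, all higher (3.88% of all genes in that fit), of which Pdia4 and Sdf2l1 passed after adjustment.

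The stress response element drawn in capitals in the Hspa5 window was found in 8 of the 28 list members that have a window (28.6%), and in 0.113% of all windows. The stretches are shown so that the spacing can be compared, each in the direction of its gene with 10 flanking bases on either side. Where the capitals begin with CGTGG, the element lies on the opposite strand. They lie, in the order shown, at chr2:34772015-34772053 (plus strand), chr10:86705523-86705561 (minus), chr12:17266481-17266519 (plus), chr8:84847065-84847103 (minus), chr11:50325790-50325828 (minus), chr15:88819510-88819548 (plus), chr14:118937817-118937855 (plus) and chr19:6046522-6046560 (plus).
Hspa5: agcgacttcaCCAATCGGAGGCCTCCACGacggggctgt
Hsp90b1: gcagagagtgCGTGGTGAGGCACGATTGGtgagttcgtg
Pdia6: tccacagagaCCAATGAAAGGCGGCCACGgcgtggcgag
Calr: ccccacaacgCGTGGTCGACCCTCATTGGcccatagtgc
Canx: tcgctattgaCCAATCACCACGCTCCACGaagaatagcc
Creld2: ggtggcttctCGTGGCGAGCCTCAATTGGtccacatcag
Dnajc3: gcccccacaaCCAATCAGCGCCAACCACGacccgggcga
Syvn1: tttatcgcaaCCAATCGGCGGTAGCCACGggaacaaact
The holders of the element did not share 1 value. Their log2 fold changes were 0.85 for Hspa5, 0.54 for Pdia6 and Creld2, 0.36 for Hsp90b1, 0.27 for Dnajc3, 0.25 for Calr, 0.17 for Syvn1 and -0.01 for Canx. Pdia4 and Sdf2l1, which had the smallest p of the list, do not hold these exact letters in the window. Hsp90b1 held 2 copies, of which the one nearer the start is shown. A heat shock element (GAA, TTC and GAA with NN between neighbours) was found in 1 of 18 heat shock protein windows, that of Hspe1, and in 0.466% of all windows. The cAMP response element (TGACGTCA) was found in 2 of 23 immediate early gene windows, those of Btg2 and Dusp1, and in 1.55% of all windows.

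Heat shock proteins of the cytosol and mitochondria lay above their CSDS level without exception in direction. All 23 tested genes had a log2 fold change above 0, with a median of 0.29, and 10 did not overlap between the groups, against 6.45% of all tested genes in that direction. In edgeR 9 had an unadjusted p under 0.05, against 2.69% of all tested genes in that direction, and 0 passed after adjustment. Without SSDS-GFP 3 the median was 0.37 and 16 had an unadjusted p under 0.05, all higher (3.88% of all genes in that fit). In that fit 2 passed in edgeR, Hspa1b and Hspa1a. In DESeq2 3 passed, Dnajb1, Hspa1b and Hspa1a, all higher. Dnajb1, the Hsp40 partner that hands clients to Hsp70, had 48.4, 50 and 41.0 CPM in CSDS and 95.0, 71.6 and 82.8 CPM in SSDS-GFP (log2 fold change 0.82 ± 0.14, adjusted p = 0.235 in edgeR and 0.000675 in DESeq2). Hspa1b, an inducible Hsp70, had 11.0, 14.3 and 11.7 CPM in CSDS and 43.2, 30.1 and 17.6 CPM in SSDS-GFP. Its 3 SSDS-GFP values spread widely, with SSDS-GFP 3 the lowest. The log2 fold change was 1.28 ± 0.28 (edgeR adjusted p = 0.527), and 1.56 without SSDS-GFP 3 (edgeR adjusted p = 0.00179). Hspa1a, a near-identical copy that may share its reads, had a log2 fold change of 1.16 ± 0.27. Hspb1 (Hsp25), a small heat shock protein, had 6.64, 7.26 and 5.07 CPM in CSDS and 13, 10.5 and 11.6 CPM in SSDS-GFP (log2 fold change 0.87 ± 0.19). Hspa8, the constitutive Hsc70 and the most abundant of those named, had 1752, 1992 and 1474 CPM in CSDS and 2762, 2403 and 2279 CPM in SSDS-GFP, a log2 fold change of 0.50 ± 0.14 (edgeR adjusted p = 0.816).

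Immediate early genes had the highest median of the 3 stress-related lists. Of 29 tested, 24 had a log2 fold change above 0, the median was 0.43, and 15 had an unadjusted edgeR p under 0.05, all higher. The share over all tested genes was 2.69%. Again 0 passed in edgeR, while DESeq2 called Fos, Dusp1, Egr2, Gadd45b and Junb, all higher. In 13 of the 29, each SSDS-GFP library lay above the CSDS range, against 6.45% of all tested genes. Fos, the AP-1 subunit used as a marker of neuronal activity, had 4.89, 4.99 and 6.04 CPM in CSDS and 22.8, 17.5 and 12.6 CPM in SSDS-GFP. It had the smallest p among the genes higher in SSDS-GFP, with a log2 fold change of 1.71 ± 0.23 and an adjusted p of 0.0887 in edgeR and 9.09e-08 in DESeq2. Dusp1, a phosphatase that switches off MAP kinases, had 13.1, 11.6 and 11.1 CPM in CSDS and 25.5, 19.2 and 25.4 CPM in SSDS-GFP (log2 fold change 0.96 ± 0.16, adjusted p = 0.207 in edgeR and 0.000723 in DESeq2).

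Egr2, a zinc finger transcription factor, had 1.19, 1.45 and 0.845 CPM in CSDS and 8.45, 4.46 and 3.09 CPM in SSDS-GFP (log2 fold change 2.17 ± 0.41). Arc, a synaptic effector of neuronal activity, had 49.3, 75.8 and 56.6 CPM in CSDS and 238, 134 and 70.0 CPM in SSDS-GFP. SSDS-GFP 3 lay inside the CSDS range for Arc and for Egr1, the related zinc finger factor, at 91.7 CPM against 94.2 CPM in the highest CSDS library. Without SSDS-GFP 3, edgeR called 13 genes (0.0788%), 8 higher and 5 lower. The higher ones were Fos (log2 fold change 1.91, adjusted p = 0.000876), Egr2 (2.45, adjusted p = 0.0152), Arc (1.60, adjusted p = 0.00851), Egr1 (0.97, adjusted p = 0.0307), Hspa1b, Hspa1a, Pdia4 and Sdf2l1. Npas4, an activity-dependent gene of neurons, behaved differently from Fos, with 9.14, 4.41 and 8.03 CPM in CSDS and 9.53, 7.88 and 4.35 CPM in SSDS-GFP (log2 fold change -0.01 ± 0.34). Bdnf, the neurotrophin, had a log2 fold change of -0.20 ± 0.27 with overlapping groups, and 0.08 without SSDS-GFP 3.

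Fos in the control libraries was 3.98, 1.62 and 5.35 CPM, close to the CSDS level, and in SSDS-shACOT12 it was 14.4, 13 and 50 CPM. Hspa5 was 173, 169.5 and 169.9 CPM in the controls and 336, 374 and 367 CPM in SSDS-shACOT12. Virus and stress regimen cannot be told apart in these levels, since the groups with a virus are also the SSDS groups.

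**Figure D3:**
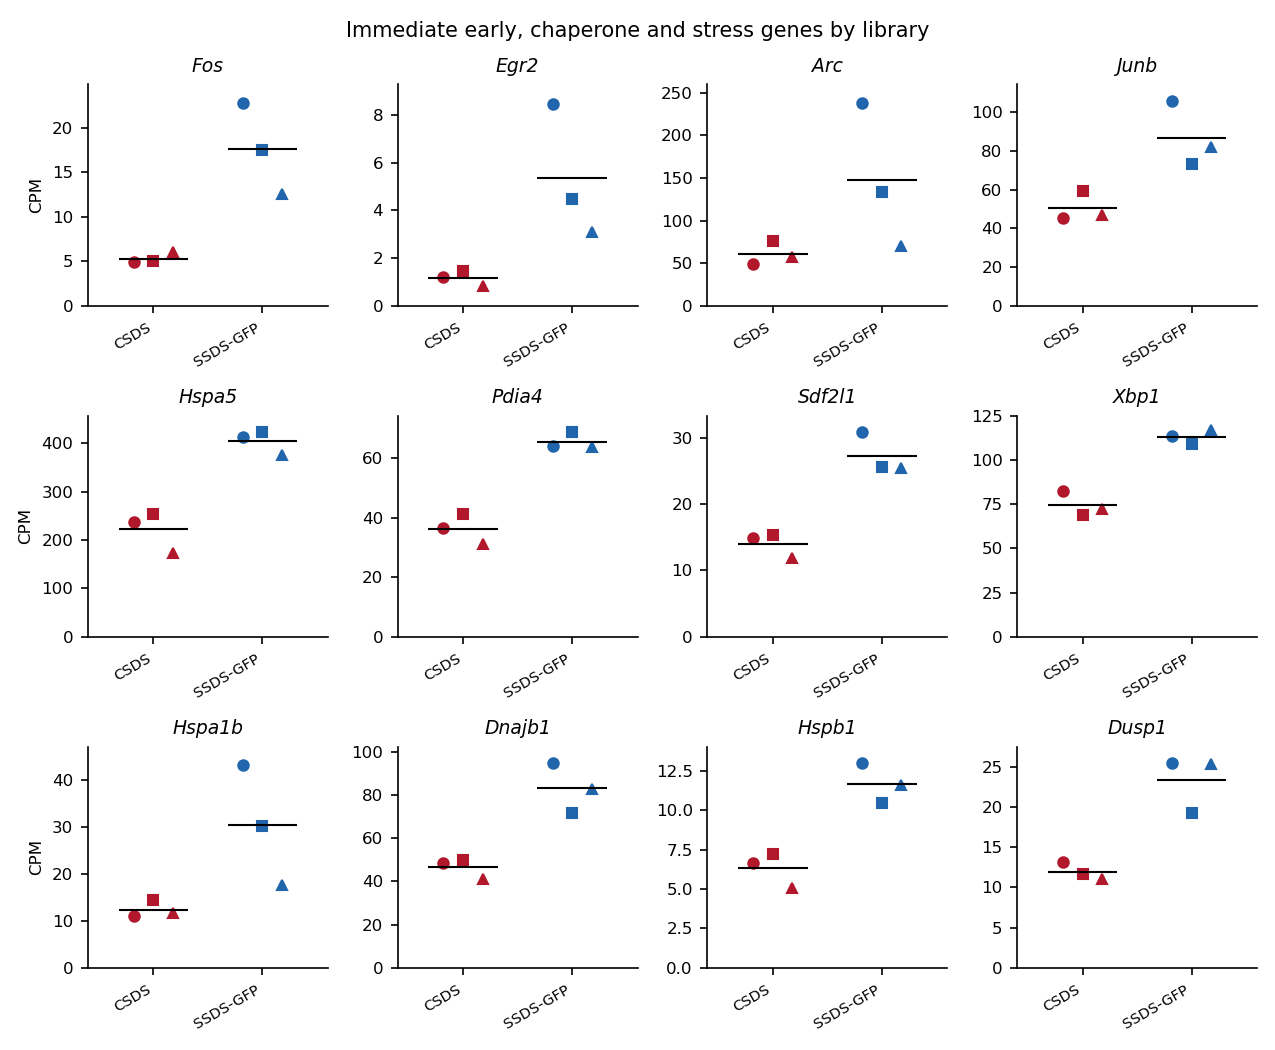
CPM (linear axes from 0) of 12 immediate early, chaperone and stress genes in the 6 libraries. Circles, squares and triangles are replicates 1, 2 and 3, and lines are group means. The groups are apart in each panel except Arc, where SSDS-GFP 3 (70.0 CPM) lies below CSDS 2 (75.8 CPM).

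Genes induced by glucocorticoids, the stress hormones of the adrenal gland, were mixed. Of 27 tested, 7 had an unadjusted p under 0.05, all higher, with a list median of 0.23. Over all tested genes, 2.69% were higher at that threshold. In edgeR 0 passed, and DESeq2 called Dusp1, which is also in the immediate early list, and Cdkn1a. Cdkn1a had 5.64, 4.35 and 7.18 CPM in CSDS and 11.6, 10.2 and 28.2 CPM in SSDS-GFP, with SSDS-GFP 3 far the highest. Sgk1, a kinase induced by glucocorticoids, had 49.9, 59.9 and 60.9 CPM in CSDS and 102, 74.6 and 67.2 CPM in SSDS-GFP (log2 fold change 0.50 ± 0.17, edgeR adjusted p = 0.887). Tsc22d3 (GILZ), another direct target, had 57.3, 61.1 and 67.5 CPM against 76.5, 74.0 and 82.2 CPM, a log2 fold change of 0.31 ± 0.12. Fkbp5, also a target and a regulator of the receptor, had similar levels in both groups: 80.9, 71.6 and 78.9 CPM in CSDS and 80.1, 76.7 and 71.3 CPM in SSDS-GFP (-0.04 ± 0.11). Nr3c1, the glucocorticoid receptor, had a log2 fold change of -0.06 ± 0.15.

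Clock genes lay on both sides of 0. Of 18 tested, 2 had an unadjusted p under 0.05 and were higher, and 5 were lower. The share over all tested genes was 2.69% in each direction. In edgeR 0 passed, and DESeq2 called Nfil3 (higher) and Dbp (lower). Dbp, an output activator of the clock, had 37.5, 39.6 and 42.4 CPM in CSDS and 24.0, 15.9 and 28.4 CPM in SSDS-GFP (log2 fold change -0.82 ± 0.19, adjusted p = 0.541 in edgeR and 0.0352 in DESeq2). Without SSDS-GFP 3 the value was -1.01, with an adjusted p of 0.0463 in edgeR. Nfil3, a repressor that binds the same sites as Dbp, had 8.52, 6.97 and 9.42 CPM in CSDS and 14.2, 13.7 and 19.3 CPM in SSDS-GFP (0.91 ± 0.19, adjusted p = 0.477 in edgeR and 0.026 in DESeq2). Arntl (BMAL1), the core activator, had a log2 fold change of 0.31 ± 0.11. Per3 (-0.48 ± 0.16), Ciart (-0.56 ± 0.18), Nr1d1 (-0.27 ± 0.12) and Nr1d2 (-0.53 ± 0.20), which act in the repressing arms, were the other 4 lower ones. The hour at which tissue was collected is not in the labels, and its part in these values was not tested.

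Inflammatory genes were high in 1 of the 6 libraries. In SSDS-GFP 3, 55 genes had at least 50 counts and more than 5 times the CPM of each of the other 5 libraries. The same count was 0 in SSDS-GFP 2, 1 in SSDS-GFP 1, CSDS 1 and CSDS 2, and 10 in CSDS 3. Ccl5, a chemokine for T cells and monocytes, had 2.07, 0.523 and 0.543 CPM in CSDS, 0.0722 and 0.131 CPM in SSDS-GFP 1 and 2, and 79.5 CPM (1391 counts) in SSDS-GFP 3. Ccl22, a chemokine of dendritic cells and macrophages, had 68.6 CPM there and at most 1.69 CPM elsewhere among the 6. Tnf, the inflammatory cytokine, had 12.5 CPM (219 counts) in SSDS-GFP 3 and was at 0 counts in the other 5. A count of 0 in those libraries limits Tnf to under 3 counts each, for counting error only.

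Il1b and Il6, also inflammatory cytokines, had 13.5 and 7.32 CPM in SSDS-GFP 3, with at most 0.689 and 0.302 CPM in the other 5 libraries. Cd74, the invariant chain of MHC class II, had 48.0 CPM in SSDS-GFP 3, 7.64 CPM in CSDS 1 and at most 1.08 CPM in the rest. Lgals3, a lectin of activated macrophages and microglia, had 22.0 CPM against at most 1.13 CPM. Nos2, inducible nitric oxide synthase, had 10.8 CPM against at most 0.523 CPM. Among the 6 libraries outside the comparison, SSDS-shACOT12 3 had the highest level of Ccl22 (16.3 CPM), Ccl5 (7.06 CPM), Cd74 (5.14 CPM), Lgals3 (3.65 CPM), Il1b (2.48 CPM) and Nos2 (2.11 CPM), each below SSDS-GFP 3. Homeostatic markers of resident microglia did not rise with them. The summed level of the 19 homeostatic microglia genes was 589 CPM in SSDS-GFP 3 and between 488 and 618 CPM in the other 5. Cx3cr1 had 45.6 CPM in SSDS-GFP 3 and between 39.4 and 55.3 CPM in the other 5. P2ry12 was lowest in SSDS-GFP 3, at 19.6 CPM against 28.6 to 41.0 CPM in the other 5. The list of activated microglia and complement genes, which includes Lgals3, had its highest summed level in SSDS-GFP 3. It was 2581 CPM there and between 1771 and 2068 CPM in the other 5. Of 19 tested, 4 (21.1%) were higher at an unadjusted edgeR p under 0.05, against 2.69% of all tested genes. In edgeR or DESeq2 0 of them passed, and the list median was 0.16, or -0.10 without SSDS-GFP 3. Cd3e, a T cell marker, was near 0 in all 6 libraries, at most 0.0604 CPM. Other genes known from leukocytes were high in SSDS-GFP 3. Ccr7, a chemokine receptor, had 15.7 CPM there and at most 0.313 CPM in the other 5. Slamf7, a surface receptor, had 7.55 CPM there and at most 0.0626 CPM in the other 5. Over the 21 leukocyte genes listed, 5 could be tested and 0 had an unadjusted p under 0.05 (0 passed in edgeR or DESeq2). The other 16 had too few counts to be tested, so this result says little about genes high in 1 library. The summed level of the leukocyte list was 16.3 to 30.7 CPM in CSDS and 17.6, 19.8 and 43.4 CPM in SSDS-GFP 1 to 3. The part of blood or tissue leukocytes in the SSDS-GFP 3 values was not tested.

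**Figure D4:**
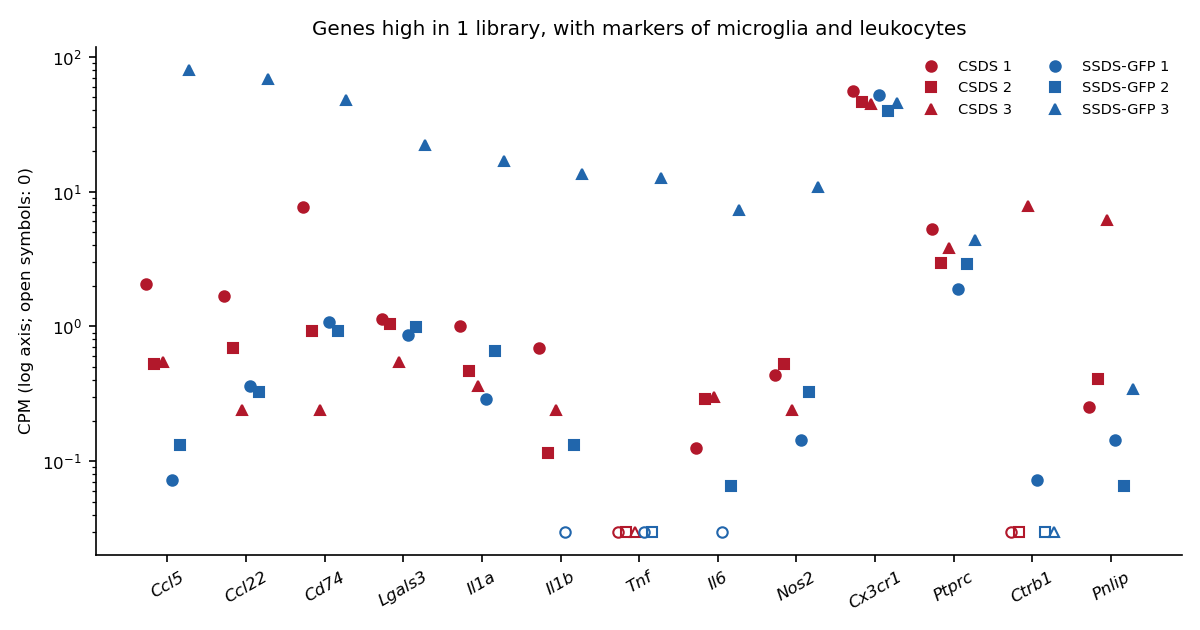
CPM (log axis) in the 6 libraries of genes high in a single library, with Cx3cr1 and Ptprc as markers of microglia and leukocytes. Red is CSDS, blue is SSDS-GFP, circles, squares and triangles are replicates 1, 2 and 3, and open symbols at the bottom are values of 0. SSDS-GFP 3 holds the high value for Ccl5 to Nos2, CSDS 3 that for Ctrb1 and Pnlip.

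The values of the immune lists depended on SSDS-GFP 3. For inflammatory cytokines and NF-kB genes, 22 of 36 could be tested, 21 had a log2 fold change above 0 and the median was 0.41. Without SSDS-GFP 3 the median was 0.09. For antigen presentation the median was 0.40 over 19 genes and -0.58 without SSDS-GFP 3, where 6 genes had an unadjusted p under 0.05, all lower (5.25% of all genes in that fit). For 36 interferon response genes it was 0.10, and -0.45 without that library, with 11 genes then lower at an unadjusted p under 0.05. In edgeR 0 genes of these 3 lists passed with or without SSDS-GFP 3, and 0 passed in DESeq2. With all 6 libraries, 3 cytokine and NF-kB genes had an unadjusted edgeR p under 0.05, all higher (13.6%). For antigen presentation there were 0, and for the interferon response 1 was higher and 1 lower (2.78% each). Over all tested genes the share was 2.69% in each direction. Cd74 had a log2 fold change of 2.51 ± 1.39 with all 6 libraries and -1.55 without SSDS-GFP 3. For homeostatic microglia (19 genes) the median was -0.03, and Aif1, Itgam and Cd68, general microglial genes, had log2 fold changes of 0.20 ± 0.23, -0.16 ± 0.26 and 0.14 ± 0.31 with overlapping groups. Tlr4 and Nlrp3, an innate receptor and an inflammasome sensor, had values of 0.44 ± 0.40 and 0.87 ± 0.67, and of 0.38 and -0.10 without SSDS-GFP 3.

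CSDS 3 carried another set. Of its 10 genes, several are known as digestive enzymes of the pancreas: Ctrb1 (chymotrypsinogen) had 130 counts, Pnlip (lipase) 101 and Amy2a3 (amylase) 94, against at most 1, 7 and 0 counts in the other 5 libraries. Prss2, Cpb1, Cela2a, Cpa1 and Cel, with 52 to 60 counts, were of the same kind. None of these 8 was tested, because too few libraries had counts.

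**Figure D5:**
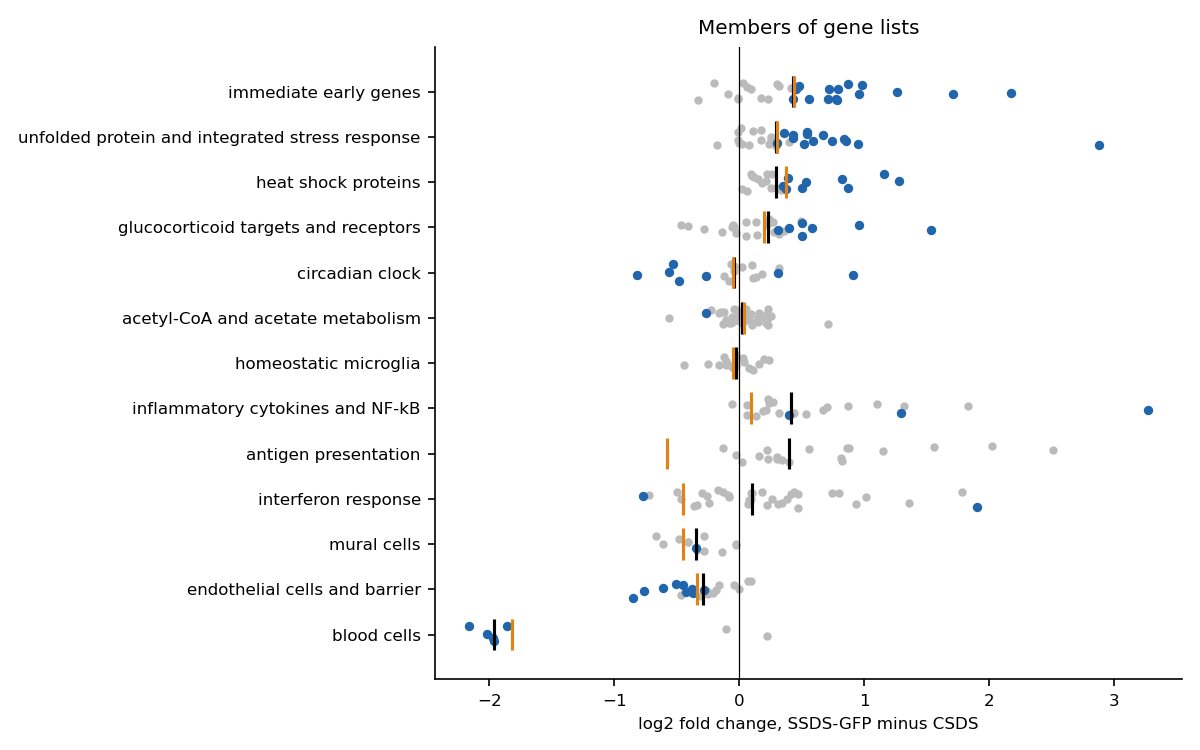
Log2 fold change (SSDS-GFP minus CSDS, horizontal axis) of the tested members of 13 gene lists. Blue points have an unadjusted edgeR p under 0.05, black bars are list medians with all 6 libraries and orange bars are the medians without SSDS-GFP 3. The blood cell genes lie near -2, and the orange bar moves across 0 for antigen presentation and the interferon response.

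The series asks about acetyl-CoA metabolism, so its genes are given in full counts. Of 38 acetyl-CoA and acetate genes tested, 20 had a log2 fold change above 0 and 18 below, with a median of 0.02. In edgeR and DESeq2 0 passed, and 1 (2.63%) had an unadjusted edgeR p under 0.05 and was lower. Over all tested genes, a similar 2.69% were lower at that threshold. The 1 list gene was Acss2, which makes acetyl-CoA from acetate in the nucleus and cytosol. It had 53.9, 51.0 and 52.7 CPM in CSDS and 43.5, 45.3 and 42.9 CPM in SSDS-GFP. The groups did not overlap, and 4.54% of all tested genes were lower without overlap. The log2 fold change of Acss2 was -0.27 ± 0.11 (edgeR adjusted p = 0.891). Acss1, the mitochondrial counterpart, had a value of -0.03 ± 0.12, and Acly, which makes acetyl-CoA from citrate, one of 0.10 ± 0.13. Acot12 itself was barely detected in this tissue, with 0.752, 0.406 and 0.845 CPM in CSDS and 0.217, 0.525 and 0.400 CPM in SSDS-GFP, and was not tested. The 29 histone acetylation genes had a median of 0.02, and 0 passed in edgeR or DESeq2. At an unadjusted edgeR p under 0.05, 2 were higher (6.9%), against 2.69% of all tested genes.

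Long lists of housekeeping genes had small differences in 1 direction. All 76 nuclear respiratory chain genes tested had a log2 fold change above 0, with a median of 0.17 and 4 at an unadjusted p under 0.05. For 79 cytoplasmic ribosomal proteins, 77 were above 0, the median was 0.21 and 5 had an unadjusted p under 0.05. These 4 and 5 genes were all higher (5.26% and 6.33%), against 2.69% of all tested genes in that direction. In both lists 0 passed in edgeR or DESeq2. Without SSDS-GFP 3 the medians were 0.17 and 0.13. In that fit 7 respiratory chain and 2 ribosomal protein genes had an unadjusted p under 0.05, all higher (3.88% of all genes). The difference was not shared by all 3 SSDS-GFP libraries: summed ribosomal protein levels were 25839, 18669.7 and 25899 CPM in SSDS-GFP 1 to 3, against 21225, 20196 and 19176 CPM in CSDS. Shorter genes showed the same order. Tested genes were divided by length into 8 bins. For the shortest bin (57 to 1545 bases) the median difference from the CSDS mean was 0.14, -0.03 and 0.15 for SSDS-GFP 1 to 3, and in the longest it was -0.11, 0.08 and -0.14. The 13 protein genes of the mitochondrial genome had a median of -0.29 with 0 at an unadjusted p under 0.05 (0 passed in edgeR or DESeq2), and 0.03 without SSDS-GFP 3. Their summed level was lowest in SSDS-GFP 3. The part of RNA length or quality in these values was not tested.

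Of the neuronal and glial identity genes, 0 were called by edgeR or DESeq2. The list medians were -0.06 for excitatory neurons, -0.09 for dentate granule cells, 0.11 for CA3 and CA2 pyramidal cells, 0.03 for inhibitory neurons, -0.04 for astrocytes and 0.12 for oligodendrocytes, with 2 genes of these lists at an unadjusted p under 0.05. Among these was Agt, the astrocyte angiotensinogen gene (log2 fold change 0.52 ± 0.18). Over all tested genes, 2.69% had an unadjusted edgeR p under 0.05 in each direction. Gfap, the astrocyte filament, had a value of -0.04 ± 0.17. Without SSDS-GFP 3 the oligodendrocyte median was 0.26, with 5 genes at an unadjusted p under 0.05, all higher (3.88% of all genes in that fit). The 10 genes of CA1 and subiculum pyramidal cells had a median of -0.32, with 8 below 0 and 1 at an unadjusted p under 0.05, Wfs1, a membrane protein of the endoplasmic reticulum (log2 fold change 0.54). Without SSDS-GFP 3 the median was -0.35, and 5 of the 10 were lower and 1 higher at an unadjusted p under 0.05 (0 passed in edgeR). Over all genes in that fit, 5.25% were lower and 3.88% higher. Thalamic and habenular markers had a median of -0.19 (-0.25 without SSDS-GFP 3), and cholinergic and striatal or amygdala markers one of 0.21 (-0.42 without it). Ventral pole markers had a median of 0.25, which was 0.01 without SSDS-GFP 3, and wide spreads: Trhr, the thyrotropin-releasing hormone receptor, had 4.89, 4.35 and 2.41 CPM in CSDS and 1.80, 9.19 and 13.3 CPM in SSDS-GFP. Ependymal and motile cilia genes, which mark the ventricle wall, had a median of 0.63 over 15 tested, with 13 above 0, 2 at an unadjusted p under 0.05 and 0 passing in edgeR or DESeq2. Of 17 choroid plexus genes, 8 were tested, 6 above 0 and 2 below, with a median of 0.24. In edgeR or DESeq2 0 passed, and 1 had an unadjusted edgeR p under 0.05, Ttr, the thyroxine carrier. Ttr had 3.63, 3.31 and 1.03 CPM in CSDS and 16.6, 5.12 and 6.23 CPM in SSDS-GFP, against 504, 140.5 and 7.91 CPM in the controls. Its log2 fold change was 1.79 ± 0.52 (edgeR adjusted p = 0.821). The list's summed level overlapped between the groups, at 147, 118 and 131 CPM in CSDS and 194, 172 and 117 CPM in SSDS-GFP.

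DESeq2 also called genes outside the lists, and the values of some are given here. They were picked by a small p on these libraries, so groups without overlap add no separate support. Over all tested genes, 4.54% were lower and 6.45% higher without overlap. Ndst3, an enzyme that modifies heparan sulfate, had 35.1, 46.6 and 47.3 CPM in CSDS and 23.2, 24.5 and 24.0 CPM in SSDS-GFP (log2 fold change -0.86 ± 0.14, adjusted p = 0.207 in edgeR and 0.000699 in DESeq2). Slc6a6, the taurine transporter, had 106, 91.7 and 104 CPM in CSDS and 61.7, 70.0 and 68.4 CPM in SSDS-GFP (-0.61 ± 0.12, adjusted p = 0.333 in edgeR and 0.00732 in DESeq2). Wnt9a, a Wnt ligand, had 9.21, 12.9 and 12.7 CPM in CSDS and 5.05, 4.53 and 6.18 CPM in SSDS-GFP (-1.16 ± 0.21, DESeq2 adjusted p = 0.00213). Usp2, a deubiquitinase under clock control, had a log2 fold change of -0.57 ± 0.12. Among the higher ones, Fzd7, a Wnt receptor, had 5.51, 6.33 and 5.61 CPM in CSDS and 10.5, 12.5 and 11.6 CPM in SSDS-GFP (0.97 ± 0.17, DESeq2 adjusted p = 0.00653). P4ha1, which hydroxylates prolines in collagen inside the endoplasmic reticulum, had 59.9, 66.7 and 60.5 CPM in CSDS and 104, 93.8 and 84.1 CPM in SSDS-GFP (0.58 ± 0.12, DESeq2 adjusted p = 0.0399). Adgrl2, an adhesion receptor of synapses, had 49.4, 49.6 and 64.9 CPM in CSDS and 35.6, 37.0 and 34.4 CPM in SSDS-GFP (-0.63 ± 0.14).

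The 4 haemoglobin calls depended on which libraries were used. Leaving out CSDS 1, CSDS 2, CSDS 3 or SSDS-GFP 2 left 0 genes called by edgeR, with 406 to 2522 genes at an unadjusted p under 0.05. Leaving out SSDS-GFP 1 gave 5 genes, the 4 haemoglobin genes and Vgll3, and leaving out SSDS-GFP 3 gave 13, of which the 5 lower ones were the 4 haemoglobin genes and Dbp. The log2 fold change of Hbb-bs lay between -2.24 and -1.82 over these 6 fits, and its edgeR adjusted p between 0.000346 and 0.254.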

How the data were processed

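Gene counts were deposited by the authors as whole numbers per library, made with HISAT2 2.0.5, featureCounts 1.5.0-p3 and the mm10 genome per the submitters' processing notes, which also name DESeq2. The annotation release and strand setting are not given in the sources used here, so overlapping and antisense genes may share reads. Libraries were made with a NEBNext Ultra kit per the labels' protocols. The authors also deposited FPKM values, used only in an alternative on log2(FPKM + 0.1) and log2(FPKM + 1).

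The 6 libraries were fitted with edgeR 4.0.16 in R 4.3.3 (TMM scaling, filterByExpr with a minimum count of 10 and a minimum total of 15, quasi-likelihood F test, Benjamini-Hochberg adjustment at 0.05). CPM values use TMM library sizes over all 12 libraries, and SE is the log2 fold change over the square root of F. Alternatives used DESeq2 1.42.0, limma 3.58.1 and the settings of the closing section. With 3 libraries a group, precision is limited by their number, and intervals from counts would cover counting error only. In the symbol column, 27 symbols that had turned into dates were restored.

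Named genes were those with the 10 smallest p among genes averaging 1 or more in log2 CPM (fewer than 10 genes were called), up to 4 called members of a list, otherwise its 2 smallest p, and a set of 19 genes. Further genes were chosen after their values were seen, as was everything described by library, promoter or DESeq2 call. The comparison, lists and genes were chosen with earlier results of these data known. Promoter windows are RefSeq's, 250 bases before the start, matched by symbol.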

Additional observations from a re-analysis of the deposited data

How the results depend on the processing

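The count of called genes depended on the test and the libraries. It was 4 (0 higher, 4 lower) in edgeR, and also with RLE size factors, at least 50 counts in 3 libraries, without mitochondrial genes, with the trend of each library with gene length removed, and with a further limit of 1 on the absolute log2 fold change. DESeq2 called 37 genes (23 higher, 14 lower), edgeR without a filter 182 (125 higher, 57 lower), and limma-voom with library quality weights 31 (23 higher, 8 lower). A fit on all 12 libraries called 1 gene (1 lower), and limma-trend on log2(FPKM + 0.1) or log2(FPKM + 1) called 0 (0 lower), with 922 and 933 genes at an unadjusted p under 0.05. Leaving out 1 library gave 0 to 13 genes, 0 to 8 higher and 0 to 5 lower. Leaving out CSDS 1 and SSDS-GFP 3 together, chosen after seeing the data, gave 10 (4 higher, 6 lower). Same-numbered libraries of the 2 groups had correlated deviations of -0.0447, 0.148 and 0.0943, so the numbers were not taken to pair them. With the number as a replicate block, 3 genes were called. The cause of these differences between settings was not tested. Some fits also used fewer libraries, and the part of that was not tested either.

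Some small or single-library log2 fold changes took the other sign. Over the fits that leave out 1 library, they ran from -1.55 to 4.77 for Cd74, -0.35 to 3.80 for Il1a, -0.10 to 1.21 for Nlrp3, -0.48 to 0.05 for Itgam, -0.22 to 0.38 for Cd68, -0.45 to 0.08 for Bdnf, -0.09 to 0.01 for Fkbp5 and -0.19 to 0.08 for Nr3c1. The ranges were -0.18 to 0.14 for Gfap, -0.02 to 0.45 for Mobp, -0.003 to 0.63 for Adra2a, -0.08 to 0.03 for Acss1 and -0.0017 to 0.16 for Acly. Without CSDS 1 and SSDS-GFP 3 the values were -0.03 for Penk, -0.08 for Cd68, 0.11 for Gfap, 0.04 for Fkbp5 and 0.05 for Nr3c1. Trhr was at -0.21 in limma-voom with quality weights, and Fkbp5 at 0.03 with the length trend removed. The cause of these sign changes was not tested.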
